A study of Mus musculus with 8 samples.

Results

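NADPH is the reducing cofactor that cells spend on glutathione and thioredoxin recycling and on lipid synthesis. The genes described are 7 enzymes that supply it or belong to the pathway that does: G6pdx, Pgls, Pgd, Tkt, Taldo1, Me1 and Idh1. They were chosen by symbol, with no measured value in the rule but with earlier results of these data known. All 7 were found among the 54232 gene rows of the expression table. The RNA came from mouse cells of C57BL/6 background labelled female germline stem cells, which are mitotic germ cells of the ovary kept in culture. A group of 3 libraries came from cells given DMSO, the solvent, and labelled the control group. The other 3 came from cells given C28. This compound has only a code name in the labels, where the sample titles write it 028. Both groups were taken at 3 h. The labels do not say whether the 3 libraries of a group came from separate cultures, so p-values reflect the variation among these libraries alone, and that variation may be technical. An H3K27ac library of each condition also belongs to the series and is not analysed here, because its peaks lie on another genome build than the gene starts at hand.

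In the pentose phosphate pathway, glucose 6-phosphate is oxidised in the cytosol to a pentose phosphate. G6pdx, glucose-6-phosphate dehydrogenase, makes the committed step and reduces NADP+ to NADPH. Pgls then opens the lactone ring, and Pgd, 6-phosphogluconate dehydrogenase, makes a further NADPH while releasing CO2. Tkt and Taldo1, transketolase and transaldolase, return pentose phosphates to glycolysis without making NADPH. Me1, the cytosolic malic enzyme, and Idh1, the cytosolic isocitrate dehydrogenase, make NADPH outside the pathway. Some genes of NADPH supply are known targets of NRF2, the transcription factor of the oxidative stress response, which binds antioxidant response elements (AREs). Which of the enzymes described here are targets of NRF2, and which are not, was not examined.

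The bases up to the start of G6pdx, Pgd and Me1 are shown because these enzymes differed most between C28 and DMSO and differ in whether the window holds an ARE core. All 7 genes matched RefSeq (GRCm38.p6), and each stretch is given 5′ to 3′ on the gene's own strand, which is the minus strand for all 3. The stretches of G6pdx and Pgd end at the base before the transcript, and that of Me1 runs on over the first 3 transcript bases so that its match is whole. Capitals mark a match to the ARE core TGACNNNGC on either strand.
G6pdx, chrX:74428881-74429130: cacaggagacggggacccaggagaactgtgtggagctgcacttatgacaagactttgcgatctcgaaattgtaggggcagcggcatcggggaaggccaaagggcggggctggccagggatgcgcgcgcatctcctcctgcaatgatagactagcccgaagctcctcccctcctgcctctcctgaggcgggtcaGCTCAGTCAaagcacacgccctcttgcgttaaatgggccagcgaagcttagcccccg
Me1, chr9:86695912-86696164: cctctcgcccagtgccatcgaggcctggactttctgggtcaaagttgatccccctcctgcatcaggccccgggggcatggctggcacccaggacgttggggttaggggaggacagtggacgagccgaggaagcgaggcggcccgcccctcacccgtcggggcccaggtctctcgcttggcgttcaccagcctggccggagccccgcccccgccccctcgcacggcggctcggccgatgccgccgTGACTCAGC
Pgd, chr4:149166706-149166955: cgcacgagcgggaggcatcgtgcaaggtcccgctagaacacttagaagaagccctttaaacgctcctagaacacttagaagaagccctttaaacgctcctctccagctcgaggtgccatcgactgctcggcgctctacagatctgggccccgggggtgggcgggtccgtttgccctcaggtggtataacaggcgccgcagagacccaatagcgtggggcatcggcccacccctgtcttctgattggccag
The search covered 250 bases before to 50 bases after the outermost start of each gene. Counting the first base of the transcript as 0, the match of G6pdx ran from -57 to -49 and reads TGACTGAGC on the opposite strand. That of Me1 ran from -6 to 2 and reads TGACTCAGC, with an AP-1 site (TGANTCA) inside it. The window of Pgd held no match to the ARE core, nor did those of Pgls, Tkt, Taldo1 and Idh1. A second, inner start of Pgd had one from 3 to 11, reading TGACATTGC. Of 32851 windows of this length in RefSeq, 12.4% held an ARE core and 7.81% an AP-1 site. A GC box (GGGCGG, either strand) was present at the outermost start of all 7 genes, against 35.7% of all windows, and Tkt had 5. These shares cover windows of all genes, inner starts included, and were not matched for expression. None of the 7 windows held the heat shock element GAANNTTC, the CARE sequence TGATGNAA or the E-box CACGTG. A match is a description of letters and shows no binding.

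**Figure D1:**
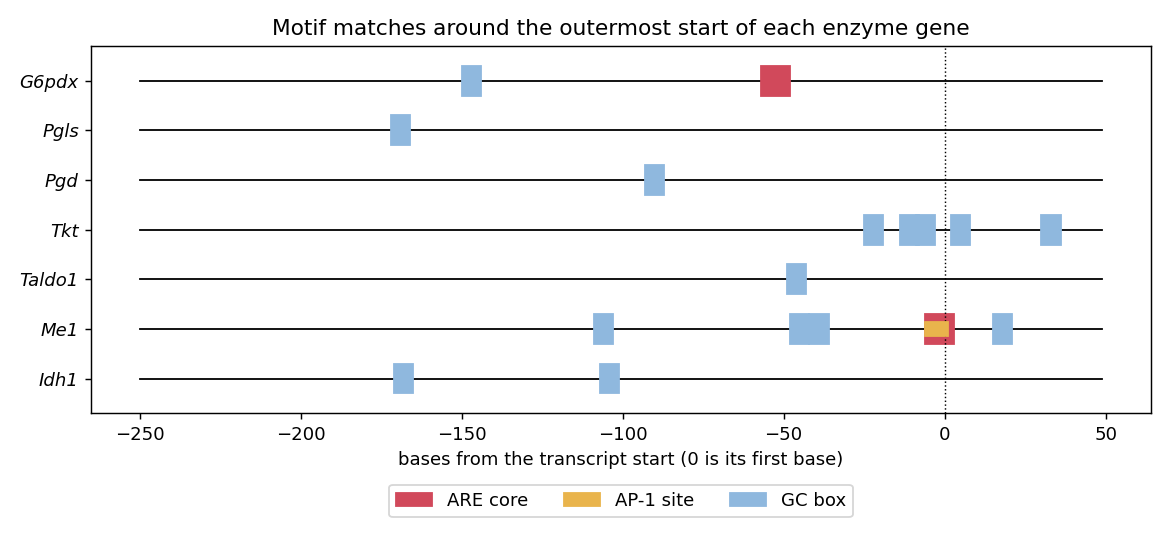
Matches to the ARE core, AP-1 site and GC box in the window of each enzyme's outermost start, with distance in bases from the transcript start on the x axis. The ARE core appears in G6pdx and Me1 only among these 7 windows, and GC boxes appear in all 7.

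Values are normalized counts, which are gene reads divided by 1 factor per library. The libraries held 16930212 to 19197376 reads on genes. Each of the 7 enzymes had between 759 reads (Me1) and 15894 reads (Tkt) in a library, so counting error was at most 3.63% of a value. Of the germline markers Pou5f1 and Dppa3 had 0 reads in all 6 libraries, Dazl had 1 and Ddx4 had 4. The other 4 of the 8 germline markers averaged 526 (Tex14), 201 (Ifitm3), 27.1 (Zbtb16) and 4.13 (Prdm1) normalized counts, and the summed level of the 8 was 659 to 824 with DMSO and 663 to 864 with C28. Of the 10 listed leukocyte and mast cell genes the highest were Ptprc, Kit, Cpa3 and Gata2, which averaged 7527, 20987, 6753 and 23743. Fcer1g averaged 1430, Hdc 73.9, Cma1 22.7 and Ms4a2 0.514. The labelled cell type is used only as a label. The summed level of 10 leukocyte and mast cell markers was 60649 to 65554 normalized counts with DMSO and 57284 to 60839 with C28. Most of that sum came from Gata2 and Kit, and Fcer1a and Tpsb2 were at 0. The summed level of 6 fibroblast markers was 1017 to 2423 with DMSO and 1080 to 2637 with C28. In 5 of these 6 fibroblast markers and 7 of the 10 others the average was 10 or more, and their part in the results below was not tested. Fewer cells of a type and less RNA per cell cannot be told apart in such bulk samples. Same-numbered libraries of the 2 groups deviated together across genes, and replicate 1 stood apart in both groups, so results are given for a model without the replicate number and for one with it, called here the replicate block.

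The comparison of C28 with DMSO asks whether the RNA of these enzymes differed after 3 h of treatment. Pgd had the largest difference, followed by Me1, G6pdx and Taldo1, and all 3 C28 libraries of each lay above all 3 DMSO libraries. Pgls, Tkt and Idh1 overlapped between the groups. With limma over 19054 genes and no block, 0 of the 7 passed an adjusted p under 0.05, against 0.136% of all genes. Before adjustment 4 of the 7 had a limma p under 0.05, against 7.83% of all genes. Without a block, edgeR's quasi-likelihood test called 1 (Pgd) as higher, against 0.131% of all genes. DESeq2 called 2 (Pgd and Me1) as higher, against 1.01% of the 12132 genes to which it gave an adjusted p. With the replicate block in limma, Pgd, Me1, G6pdx and Taldo1 rose and 0 fell, so 4 of 7 were called as higher where 2.55% of all genes were. The same 4 were called as higher with the block by edgeR, against 3.71% of all genes. DESeq2 with the block also called these 4 as higher, against 3.77% of the 10250 genes to which it gave an adjusted p. Groups that do not overlap, with C28 higher, made up 8.16% of all genes tested. The median log2 fold change was 0.21 over the 7 enzymes and 0.004 over all genes, and 5 of the 7 lay above 0, against 51% of all genes. Because the 7 were chosen with earlier results of these data known, these shares are no independent evidence.

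G6pdx, at the committed step, was at 3395, 4015 and 4252 normalized counts in DMSO replicates 1 to 3 and at 4402, 4875 and 5267 in C28 replicates 1 to 3. The lowest C28 library thus stood only just above the highest DMSO library, while within each replicate number C28 was higher by a similar ratio of 1.30, 1.21 and 1.24. The means were 3887 ± 443 and 4848 ± 433 (SD, n = 3 each), a log2 fold change of 0.32 with a 95% confidence interval from 0.08 to 0.56 (limma adjusted p 0.495). With the block the interval was 0.22 to 0.42 and G6pdx rose (limma adjusted p 0.00228). The near-identical retrogene G6pd2 had 2 reads in all. How reads that fit both copies were assigned is not known, so the division between copies is uncertain.

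Pgls, the lactonase between the 2 dehydrogenases, was at 1439, 1382 and 1272 normalized counts with DMSO and at 1356, 1225 and 1258 with C28. The groups overlapped, and C28 was the lower library in 3 of 3 same-numbered pairs, as for 18.8% of all genes tested. The log2 fold change was -0.09, with an interval from -0.28 to 0.09, and from -0.21 to 0.03 with the block (limma adjusted p 0.881, and 0.435 with the block). Both intervals leave out a rise as large as the log2 fold change of Pgd or Me1.

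Pgd, the second NADPH-making enzyme of the pathway, was at 5404, 6730 and 6611 normalized counts with DMSO and at 10704, 10107 and 9875 with C28. The 2 groups were far apart, and DMSO replicate 1 was the lowest library whereas C28 replicate 1 was the highest. The means were 6248 ± 734 and 10229 ± 428 (SD, n = 3 each), a 1.64-fold difference and a log2 fold change of 0.72 ± 0.09 (SE). Without the block its limma adjusted p was 0.0515, just above the threshold, and it had rank 28 among 19054 genes by p. With the block it rose (limma adjusted p 0.000361). The edgeR adjusted p was 0.04897, and in the authors' deposited table the shrunken log2 fold change was 0.61 with an adjusted p of 1.45e-07. The ratio of C28 to DMSO was 1.98 in pair 1, 1.50 in pair 2 and 1.49 in pair 3. Pgd therefore differed more in replicate 1, which stood apart from the others, and by nearly equal ratios in pairs 2 and 3.

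**Figure D2:**
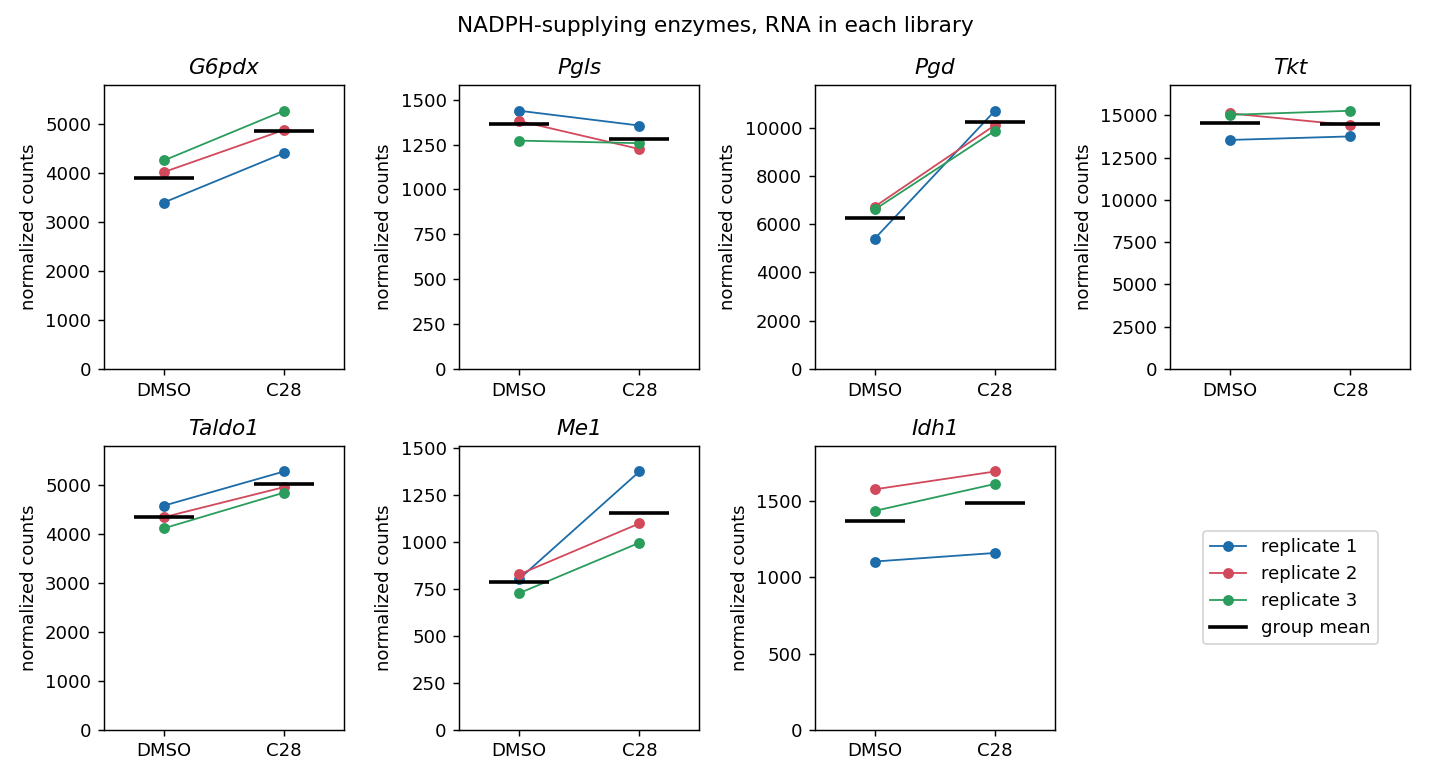
Normalized counts of each enzyme in the 6 libraries, with lines joining the same replicate number and black bars at the group means; each y axis starts at 0. Pgd, Me1, G6pdx and Taldo1 have all C28 points above all DMSO points, and replicate 1 is the lowest library of Idh1 in both groups.

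Tkt and Taldo1 carry the non-oxidative branch. Tkt was at 13554, 15124 and 15040 normalized counts with DMSO and at 13763, 14427 and 15281 with C28. Replicate 1 was the lowest library in both groups, and C28 was higher in 2 of 3 pairs. The log2 fold change was -0.01, and its interval of -0.17 to 0.15 (-0.10 to 0.08 with the block) bounds any difference (limma adjusted p 0.995, and 0.953 with the block). Taldo1 was at 4571, 4336 and 4109 with DMSO and at 5268, 4949 and 4837 with C28. The groups did not overlap, and the pair ratios of 1.15, 1.14 and 1.18 were close to each other. The log2 fold change of Taldo1 was 0.21, from 0.06 to 0.37 (limma adjusted p 0.480), and with the block it rose, with an interval from 0.12 to 0.30 (limma adjusted p 0.0171).

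Me1 was at 802, 826 and 726 normalized counts with DMSO and at 1373, 1097 and 994 with C28. Every C28 library lay above every DMSO library, with C28 replicate 1 well above the other 2. The means were 785 ± 52.2 and 1154 ± 196 (SD, n = 3 each), and the log2 fold change was 0.55 ± 0.13 (SE), with a limma adjusted p of 0.285. With the block Me1 rose (limma adjusted p 0.00251). The ratio was 1.71 in pair 1, 1.33 in pair 2 and 1.37 in pair 3. In the authors' deposited table Me1 had a shrunken log2 fold change of 0.43 and an adjusted p of 0.0175.

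Idh1 was at 1105, 1580 and 1438 normalized counts with DMSO and at 1161, 1697 and 1615 with C28. The spread within each group, 17.7% and 19.3% of the mean (SD, n = 3 each), was the widest of the 7 enzymes and came with low values in replicate 1 of both groups. C28 was higher in 3 of 3 pairs, by ratios of 1.05, 1.07 and 1.12, as were 20.6% of all genes tested. The log2 fold change was 0.11, with an interval from -0.30 to 0.53 without the block and from -0.003 to 0.23 with it (limma adjusted p 0.955, and 0.288 with the block). The upper limits of both intervals lay below the log2 fold changes of Pgd and Me1. Without the block, the interval of Idh1 still overlapped those of Pgd (0.50 to 0.93) and Me1 (0.25 to 0.84).

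**Figure D3:**
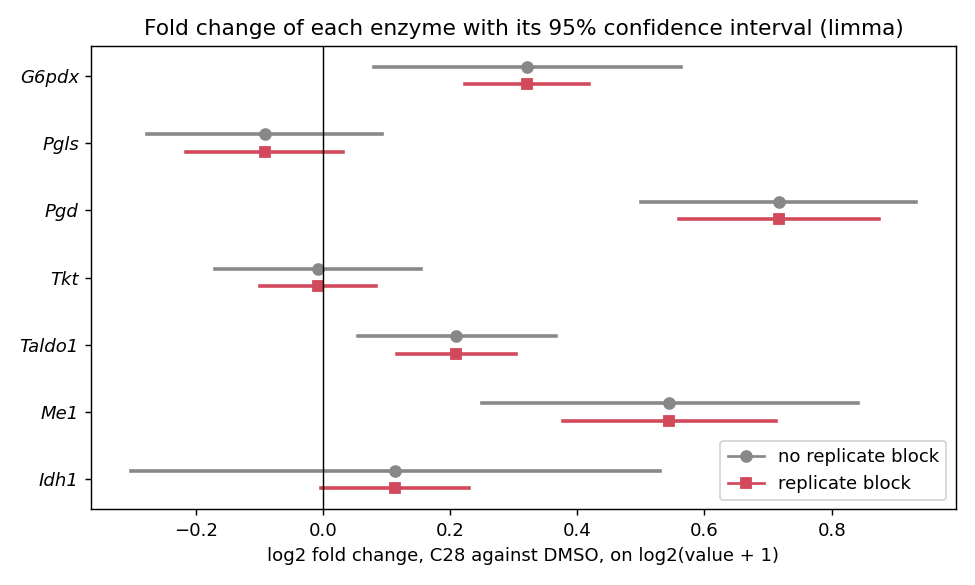
Log2 fold change of each enzyme on the log2(value + 1) scale, with 95% confidence intervals from limma without the replicate block (grey) and with it (red). Pgd has the largest value, 0.72, and the intervals of Pgls, Tkt and Idh1 include 0 in both fits.

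Leaving out a same-numbered pair changed which of these calls were made with the block. Pgd rose with any 1 pair left out (limma adjusted p 8.57e-05 without pair 1, 0.0473 without pair 2 and 0.0086 without pair 3). Me1 rose without pair 1 (0.0071) and without pair 3 (0.04003), but not without pair 2 (limma adjusted p 0.0726). G6pdx and Taldo1 rose without pair 1 (0.00361 and 0.0146) but did not pass without pair 2 (0.121 and 0.276) or without pair 3 (limma adjusted p 0.0823 and 0.264). The log2 fold change of Pgd lay between 0.58 and 0.79 in all 22 alternatives, that of Me1 between 0.41 and 0.65, that of G6pdx between 0.23 and 0.39 and that of Taldo1 between 0.17 and 0.25.

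Ratios within a library compare the enzymes with no use of the factor between libraries. The log2 ratio of Pgd to Tkt was -1.33, -1.17 and -1.19 with DMSO and -0.36, -0.51 and -0.63 with C28. The ratio was 1.65-fold higher with C28, and the groups did not overlap. Within the oxidative branch, the log2 ratio of Pgd to G6pdx was 0.67, 0.75 and 0.64 with DMSO and 1.28, 1.05 and 0.91 with C28. Pgd was therefore higher relative to G6pdx in every C28 library than in any DMSO library, by 1.32-fold in the mean. Relative to Pgls Pgd was 1.75-fold higher with C28, again with no overlap. The log2 ratio of Me1 to Idh1 was -0.462, -0.935 and -0.986 with DMSO and 0.242, -0.629 and -0.7 with C28. The groups overlapped, though C28 was higher within each replicate number. The log2 ratio of Taldo1 to Tkt went from -1.75 ± 0.16 to -1.53 ± 0.14 and that of Idh1 to Tkt from -3.42 ± 0.18 to -3.30 ± 0.24 (SD, n = 3 each). Both overlapped between groups, and both were higher with C28 within each replicate number. These ratios are of reads uncorrected for transcript length, so their level says nothing of which RNA was more abundant, and no test was made on them.

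**Figure D4:**
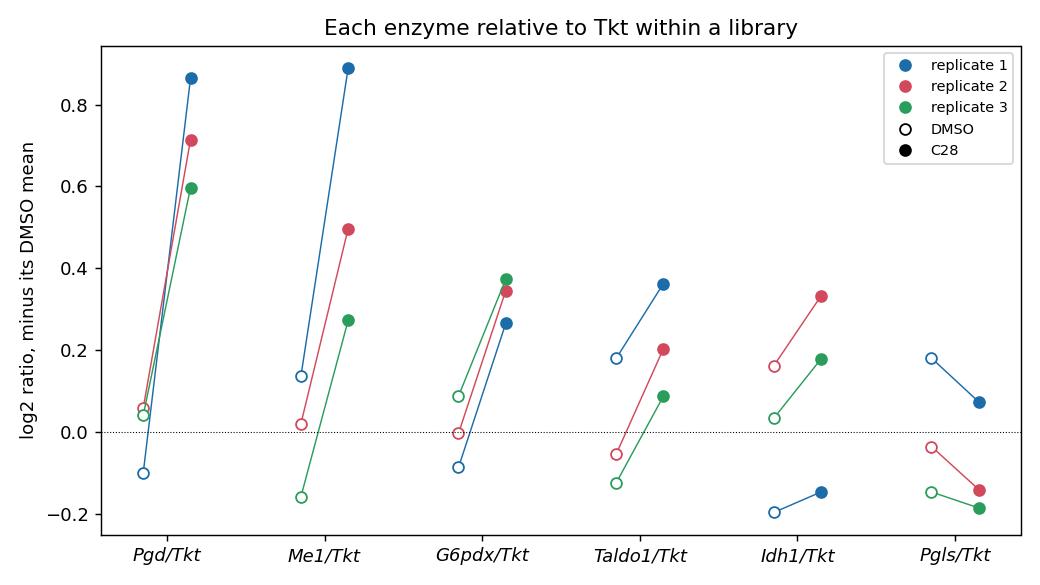
Log2 ratio of each enzyme to Tkt in each library, set to 0 at the DMSO mean, for DMSO (open) and C28 (filled), with lines joining replicate numbers. The ratios of Pgd, Me1 and G6pdx have all C28 points above all DMSO points, and those of Taldo1, Idh1 and Pgls overlap. Within each replicate number the C28 point is higher for Taldo1 and Idh1 and lower for Pgls.

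The remaining enzymes of the pentose phosphate pathway and of ribose phosphate use gave no call. Of 14 listed genes 12 were tested, 0 passed in limma without or with the block, 0 had an unadjusted limma p under 0.05 without the block, and edgeR and DESeq2 each called 0 without and with it. Their median log2 fold change was -0.06, and 5 of 12 lay above 0, against 51% of all genes. Rpia, ribose-5-phosphate isomerase, was at 1445, 1396 and 1436 normalized counts with DMSO and at 1108, 1427 and 1289 with C28. Rpe, the epimerase that supplies transketolase, was at 1702, 1600 and 1698 with DMSO and at 1436, 1664 and 1625 with C28. C28 replicate 1 was the lowest library of both, and both overlapped between groups (log2 fold changes of -0.17 and -0.08).

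A list of possible other NADPH sources gave 1 call by limma among 12 tested genes, with the block, and 0 by edgeR or DESeq2 without it. Limma with the block called 4.8% of all genes. Which cofactor each enzyme uses was not examined. A call in this list is therefore not read as a change of NADPH supply. Mthfd2, a mitochondrial folate dehydrogenase, was at 4403, 4822 and 4309 normalized counts with DMSO and at 4942, 6222 and 5329 with C28, and rose with the block (log2 fold change 0.28, limma adjusted p 0.515 without it and 0.00895 with it). No other gene of the list passed in either limma fit, and the median log2 fold change was -0.01. Mthfd1, a cytosolic folate dehydrogenase named here after its values were seen, was at 4534, 5167 and 5231 with DMSO and at 3617, 4871 and 4691 with C28, lower in 3 of 3 pairs though the groups overlapped (log2 fold change -0.19). With the block it was called lower by edgeR (adjusted p 0.026) and DESeq2 (adjusted p 0.0448) but not by limma (adjusted p 0.0722). Idh2, the mitochondrial counterpart of Idh1, averaged 3559 ± 294 and 3385 ± 305, and Me2, a mitochondrial malic enzyme, 3447 ± 563 and 3241 ± 299 (SD, n = 3 each). Nadk, which makes NADP+ from NAD+, averaged 3709 ± 55.8 and 3682 ± 249, a log2 difference of -0.01 with an interval from -0.17 to 0.15. Nnt, the mitochondrial transhydrogenase, was low in every library, at 11.2 to 25.7 normalized counts. A deletion in Nnt is known in the C57BL/6J substrain, and the labels give no substrain.

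Genes that feed substrate to Me1 and Idh1 or move it between compartments gave 0 calls among 9 tested in either limma fit. By edgeR and DESeq2 0 were called, without and with the block. Before adjustment 2 of the 9 had a limma p under 0.05, against 7.83% of all genes. In 2 of the 9 all C28 libraries lay below all DMSO libraries, against 6.49% of all genes. Their median log2 fold change was -0.11 and 1 of 9 lay above 0, against 51% of all genes. Of 18 tested genes of glucose entry and upper glycolysis, limma without the block called 0, as did edgeR and DESeq2, and 1 had an unadjusted limma p under 0.05. Limma with the block called 2.25% of all genes as lower. Of the 18 genes 1 fell with the block, Pfkfb3, which makes the activator of phosphofructokinase. It went from 1630, 1858 and 1789 normalized counts to 1231, 1482 and 1564 (log2 fold change -0.31, limma adjusted p 0.0112 with the block). All 3 C28 libraries of Pfkfb3 were below the lowest DMSO library, as for 3 of the 18 genes of the list and 6.49% of all genes tested. Only edgeR with the block also called Slc2a1, a glucose transporter, as higher (log2 fold change 0.19) and Pfkl, a phosphofructokinase subunit, as lower (-0.18), both named after their values were seen. Lipid synthesis, a large consumer of NADPH, had 0 calls among 11 genes in either limma fit and 0 by edgeR or DESeq2 without the block. There, 0 had an unadjusted limma p under 0.05, with a median log2 fold change of 0.03.

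Among 21 tested users of NADPH, 1 rose by limma without the block and 6 with it, 0 fell, and the median log2 fold change was 0.06. Over all genes, limma called 0.121% as higher without the block and 2.55% with it. Of the users, edgeR called 1 as higher without the block and 7 with it, against 0.131% and 3.71% of all genes. DESeq2 called 5 and 6 of the users as higher, against 1.01% and 3.77% of the genes to which it gave an adjusted p. Txnrd1, the cytosolic thioredoxin reductase, was at 7878, 8685 and 8804 normalized counts with DMSO and at 18766, 15770 and 15632 with C28 (log2 fold change 0.98, limma adjusted p 0.0109, and 5.08e-05 with the block). Gsr, glutathione reductase, was at 1691, 2065 and 1917 with DMSO and at 3131, 3000 and 2754 with C28 (0.65, limma adjusted p 0.07201, and 0.000543 with the block). Both reductases spend NADPH, and neither shared a value between groups. Nqo1, a quinone reductase, was at 67.3, 59.9 and 88.01 with DMSO and at 141, 197 and 247 with C28 and rose with the block (log2 fold change 1.41). Blvrb, biliverdin reductase B, was also among the 6 that rose with the block (log2 fold change 0.89).

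A list of NRF2 and close targets shares Txnrd1, Gsr and Nqo1 with the users. By limma 5 of its 17 rose without the block and 13 with it, against 0.121% and 2.55% of all genes. Of the 17, 0 fell by limma, and the median log2 fold change was 0.81. That list was written with earlier results of these data known, so its direction is no independent evidence. Osgin1, an oxidative stress response gene, had a log2 fold change of 2.90, Hmox1, heme oxygenase 1, of 2.62 and Srxn1, sulfiredoxin, of 2.09, and these 3 rose without the block too (limma adjusted p 0.00807, 0.00416 and 0.00881). Slc7a11, the cystine transporter, had one of 1.83 and rose with the block (limma adjusted p 0.172 without it and 2.02e-07 with it). In all 4, each C28 library lay above each DMSO library. Nfe2l2, which encodes NRF2, was at 2241, 1996 and 1976 normalized counts with DMSO and at 1911, 1790 and 1763 with C28 (log2 fold change -0.18, limma adjusted p 0.632, and 0.0631 with the block), and edgeR with the block called it lower (adjusted p 0.0407). The differences of Pgd and Me1 lay below that median, and those of G6pdx and Taldo1 lay further below it.

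**Figure D5:**
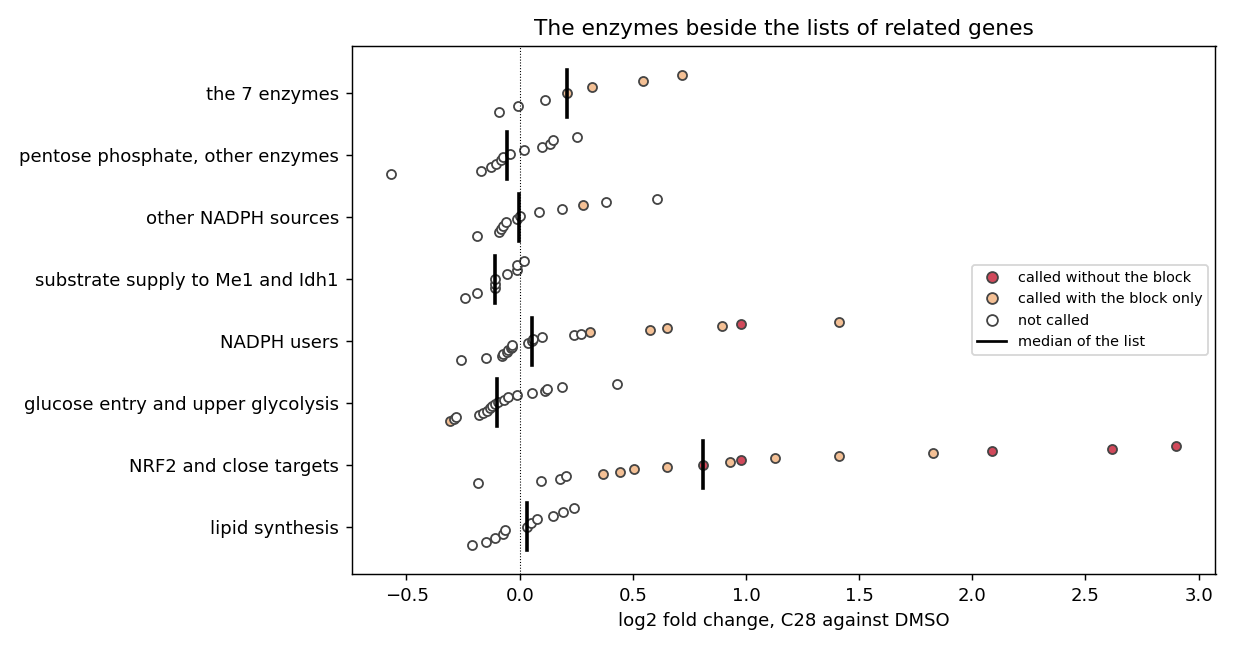
Log2 fold change of every tested gene of each list, C28 against DMSO, with 1 point per gene, colour for the call in limma and a black bar at the list's median. The medians are 0.21 for the 7 enzymes, -0.06 for the other pentose phosphate enzymes and 0.81 for NRF2 and close targets.

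The genes whose profile over the 6 libraries was most like each enzyme were found among 10565 genes averaging at least 50 normalized counts, by the smallest distance between centred log2 values. For Pgd these were Gsr (distance 0.133, Pearson r 0.99 over 6 libraries), Banp (0.208) and Cat, the catalase gene (0.211). For Me1 they were Kctd7 (0.159), Zfp775 (0.17) and Cds2 (0.171). For G6pdx they were Zfp260 (0.105), Pik3cb (0.106) and Atxn7 (0.139), and for Taldo1 they were Pla2g6 (0.04675), Gm13509 (0.0711) and Gm10039 (0.0728). No enzyme of the 7 was compared with another of the 7 in this search. The points share libraries, factors and the split between DMSO and C28, so likeness here is a description.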

How the data were processed

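RNA was measured in 3 DMSO and 3 C28 libraries, grouped and numbered by the sample titles. The submitters' processing notes list Bowtie2, Cufflinks 2.2.1 and the build mm9 without saying what each did. How reads were counted, and whether by strand, is not given in the sources used here. Per gene, the authors deposited a signal: its reads divided by 1 factor per library, as shown by the values, of which 100% come out whole (tolerance 0.01) when divided by that of 1 read. The authors' deposited log2 fold change and adjusted p-value are also used; DESeq2 1.42.0 with a fold change prior came within 0.00161 of that log2 value, so it is shrunken.

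Where a name had several rows the highest was kept. The 19054 genes that reached 1 in 3 or more libraries entered limma 3.58.1 (R 4.3.3, intensity trend) on log2(value + 1), a scale that understates low genes; p-values were adjusted over all of them by Benjamini and Hochberg at 0.05. The design planned limma for normalized values, so edgeR 4.0.16 and DESeq2 on recovered reads are alternatives. The fits were tested on simulated data. Deviations from group means, over 10572 genes averaging at least 50, correlated at 0.84, 0.68 and 0.71 between libraries numbered 1, 2 and 3. Each was highest with its own number, so the numbers were taken as pairs. This comes from the data, as no label states it. DMSO 2 also correlated at 0.54 with C28 3, and DMSO 3 at 0.41 with C28 2. Pairs 2 and 3 were thus less clearly separated from each other than from pair 1. Between libraries of a group the chi-square per gene was 5.23 to 29, more than counting noise gives, so none was the same library sequenced again. Libraries prepared separately from the same culture cannot be recognised in this way.

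The members and lists were chosen with earlier results of these data known. The 7 members are named in full; of the lists, genes called in either limma fit are named, up to 4 a list and direction by fold, with Rpia, Rpe, Idh2, Nnt, Me2, Nadk, Txnrd1, Gsr, Nqo1 and Nfe2l2 in any case. Genes outside this rule are said to be so where named. A gene of the NADPH users and a gene of the lipid synthesis list are not reported here. Germline, oocyte, ovarian somatic, leukocyte and mast cell, fibroblast and endothelial marker lists were read. The H3K27ac peak lists were not used: the starts at hand are on GRCm38.p6.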

Additional observations from a re-analysis of the deposited data

How the results depend on the processing

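The fold changes of Pgd, Me1, G6pdx, Taldo1 and Pgls kept their direction in all 22 alternatives. That of Tkt, near 0, became 0.02 and 0.016 when DMSO replicates 2 and 3 were left out in turn, 0.029 without C28 replicate 1 and 0.022 without both replicates 2 with the block, so it spanned -0.059 to 0.029 with 1 library left out. That of Idh1 became -0.035 without DMSO replicate 1 and spanned -0.035 to 0.284. The count of the 7 enzymes called was 4 with the replicate block, also by edgeR and DESeq2 with the replicate block, 1 with no filter beyond a value above 0, 1 with a value of at least 10 in 3 libraries, 1 by edgeR, 2 by DESeq2 and 0 with any 1 library left out. It was 1 without replicate 1 in both arms, and 4, 1 and 2 without replicates 1, 2 and 3 in both arms with the block. Over all genes it was 26, and 914 with the replicate block, 51 with no intensity trend, 186 by DESeq2, 1332 by edgeR with the block, 732 by DESeq2 with the block, 91 without replicate 1 in both arms, and 853, 50 and 207 without replicates 1, 2 and 3 in both arms with the block. It was 0 to 23 with 1 library left out, the 0 by limma with C28 replicate 2 left out, where 1204 had an unadjusted p under 0.05. Of the other listed genes 5 were called, and 18 with the replicate block, 3 with no intensity trend, 14 by DESeq2, 26 by edgeR with the block, 20 by DESeq2 with the block, 11 without replicate 1 in both arms, 24, 7 and 13 without replicates 1, 2 and 3 in both arms with the block, and 0 to 6 with 1 library left out. The within-library ratios moved by less than their SD on log2(value + 1). The fits that leave out a pair and those of edgeR and DESeq2 with the block, except the one without replicate 1, were added after seeing the data. The alternatives planned for H3K27ac were not run.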
